A study of Mus musculus with 12 samples.

Results

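Ctgf, Cyr61, Ankrd1, Amotl2, Ajuba, Lats2, Tead1, Yap1, Wwtr1 and Axl are 10 genes of the YAP-TEAD transcription programme, its coactivators and its feedback regulators. They were taken by name from the deposited count table and make up 10 of its 49671 gene rows. Each name matched a single row, and all 10 passed the filter on low counts, so every member was tested. RNA of ImPSC-1 was sequenced, an immortalised line that the labels describe as mesenchymal cells of the mouse pancreas. Stable derivatives of the line formed 4 groups of 3 libraries. The group shCtrl carried the PLKO.1 control vector and has the genotype label WT, and shKitl carried a hairpin against Kitl named sh2KitL. The group Egfp_OE overexpressed Egfp as the control of Kitl_OE, which overexpressed Kitl, the gene of the secreted and membrane-bound ligand of the receptor tyrosine kinase KIT. All groups grew in the same serum-containing medium, and the labels name no further agent. A single hairpin is named for the knockdown, and the labels do not say whether a derivative is 1 clone. Whether the 3 libraries of a group stem from independent cultures is not stated either, and the tests therefore see only library-to-library spread, part of which may be technical. The sample descriptions carry P numbers from 13 to 20 whose meaning is not given, and the groups share them only in part.

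The libraries held 24979742 to 33517686 counts in genes. The members were counted 696 to 29973 times per library. Kitl, the targeted gene, averaged 74.5 ± 1.65 counts scaled to library size (CPM; SD, n = 3) in shCtrl and 27.0 ± 2.88 in shKitl. It stood at 72.5, 31.8 and 72.3 CPM in Egfp_OE and at 125, 114 and 128 in Kitl_OE (log2 difference 1.06 ± 0.255, edgeR's adjusted p = 0.00836). That difference was 0.77 without Egfp_OE replicate 2 (0.000854), and it was not called when libraries were scaled by their spike-ins (0.95, 0.242). Egfp_OE replicate 2 stood apart: its Kitl level was the lowest of its group, and its ERCC spike-in RNAs took 1.35% of counts against 0.446% to 0.684% in the other 11 libraries. Markers of stellate and fibroblast cells were present, with 11 of 11 reaching 1 CPM in some library. Of 10 markers of pancreatic epithelium 1 reached that level, and Prss1, Ptf1a, Ins1 and Ins2 were at 0 in every library. The summed mesothelial markers, of which 7 of 8 reached 1 CPM, ranged from 16.5 to 31.1 CPM in Egfp_OE and from 377 to 631 CPM in Kitl_OE.

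YAP (Yap1) and TAZ (Wwtr1) are transcriptional coactivators that enter the nucleus when cells spread, stretch or sit on a stiff matrix, and they act through the DNA-binding TEAD proteins. The Hippo kinase cascade, which ends in LATS1 and LATS2, phosphorylates both coactivators and keeps them in the cytoplasm. Among their best-known targets are the secreted CCN proteins encoded by Ctgf (Ccn2) and Cyr61 (Ccn1), while Lats2 and Amotl2 are targets that feed back on the pathway. In fibroblasts and stellate cells, this programme is known for its link to matrix deposition and contractility.

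TEAD proteins bind the core sequence GGAATG, which reads CATTCC on the other strand. RefSeq promoter windows (GRCm38.p6, 250 bases before to 50 bases after an annotated start) were found for 8 of the 10 members. Ctgf and Tead1 had none, so the motif results do not cover them. The 8 members had 10 windows because Lats2 and Wwtr1 have more than 1. Of these windows 9 held the core motif on either strand, and among all 32851 mouse windows of the same length 14.7% did. Ankrd1 and Ajuba held 2 copies each, against 1.36% of all windows with at least 2. None of the members' windows held a CArG box, the element bound by serum response factor, which 1.63% of all windows held. A match describes the letters in the window and is no evidence of binding. Printed here are windows of the members that rose in Kitl_OE and have an entry. Each is given 5′ to 3′ on the gene's strand with the core motif in capitals: Cyr61 (chr3:145649986-145650235, minus strand), Ankrd1 (chr19:36119845-36120094, minus strand), Ajuba (chr14:54577662-54577911, minus strand) and Amotl2 (chr9:102717554-102717803, plus strand) as the 250 bases before the start, and Lats2 (chr14:57746114-57746143, minus strand) as 30 bases around it.
Cyr61: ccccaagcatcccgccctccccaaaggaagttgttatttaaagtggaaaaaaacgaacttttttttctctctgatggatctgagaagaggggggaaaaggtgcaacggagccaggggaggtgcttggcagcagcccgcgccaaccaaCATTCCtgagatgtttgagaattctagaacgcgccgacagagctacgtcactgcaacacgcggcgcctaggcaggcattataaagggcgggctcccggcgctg
Ankrd1: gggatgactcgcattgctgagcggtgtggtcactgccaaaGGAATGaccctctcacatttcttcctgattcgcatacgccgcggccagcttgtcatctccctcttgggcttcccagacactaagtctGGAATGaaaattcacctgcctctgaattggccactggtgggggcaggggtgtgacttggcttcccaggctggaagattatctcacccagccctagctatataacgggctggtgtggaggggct
Ajuba: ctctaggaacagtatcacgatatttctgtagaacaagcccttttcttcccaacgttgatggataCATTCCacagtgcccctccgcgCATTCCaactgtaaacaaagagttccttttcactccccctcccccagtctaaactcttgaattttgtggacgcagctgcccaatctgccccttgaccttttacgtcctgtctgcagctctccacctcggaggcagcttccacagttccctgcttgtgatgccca
Amotl2: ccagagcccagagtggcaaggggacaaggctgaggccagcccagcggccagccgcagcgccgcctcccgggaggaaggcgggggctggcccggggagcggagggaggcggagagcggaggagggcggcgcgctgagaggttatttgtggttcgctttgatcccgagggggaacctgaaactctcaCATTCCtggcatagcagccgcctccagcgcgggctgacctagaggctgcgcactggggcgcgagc
Lats2: gaggaggggtcacgtgacgcccgtGGAATG

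The copies in Ankrd1 began 210 and 123 bases before the start, and those in Ajuba 186 and 164 bases before it. Cyr61 held its single copy 103 bases before the start and Amotl2 65 bases before it, both on the opposite strand. In Lats2 the motif lay after the start, at position 5, in 1 of its 2 windows. The coactivator genes themselves also held the motif, 141 bases before the start in Yap1 and 136 or 170 in the 2 windows of Wwtr1, which overlap and share the copy, as did Axl at 233. The motif was thus found in members that rose in Kitl_OE and in members that were not called.

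**Figure D1:**
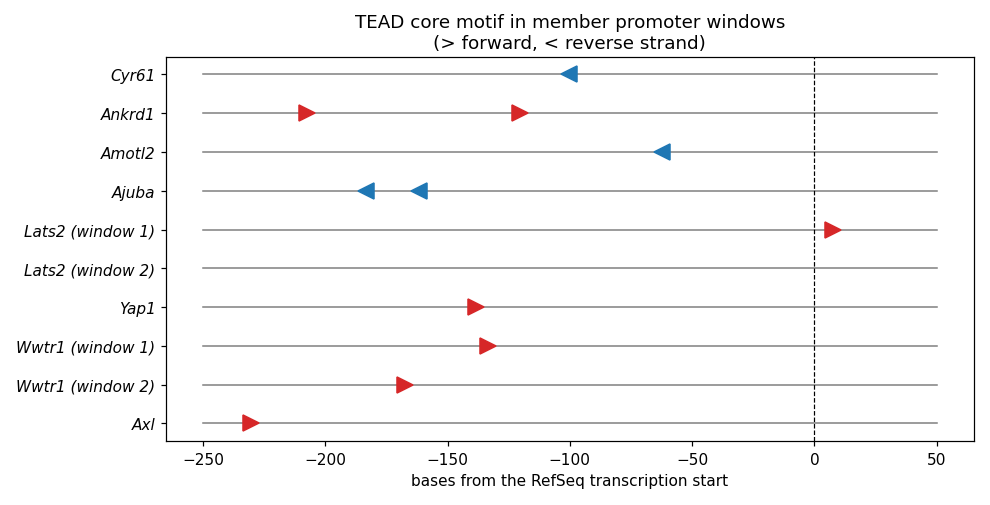
Positions of the TEAD core motif in the RefSeq promoter windows of the members, in bases from the annotated start, 1 line per window, pointing right on the gene's strand and left on the other. Of 10 windows 9 held the motif, and Ankrd1 and Ajuba held 2 copies. Ctgf and Tead1 had no window.

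Levels of different genes were compared per length, in the authors' deposited TPM values, which correct for gene length. In shCtrl, Cyr61 averaged 760.5 TPM, Ankrd1 723 and Axl 583, and these were the 3 highest members. Ctgf followed at 199.5 TPM. Both coactivators were present at lower and similar levels, 61.0 TPM for Yap1 and 91.0 for Wwtr1, with Tead1 at 61.3. Lats2 was the lowest member at 33.4 TPM. The largest shift in this order was that of Ctgf, which averaged 35.4 TPM in Egfp_OE, below Yap1 at 69.0, and 386 TPM in Kitl_OE, next to Axl at 389.6. Over the 12 libraries, Ctgf spanned a 20.2-fold range of CPM, Ankrd1 5.48-fold, Lats2 3.64-fold and Cyr61 3.17-fold. Yap1 spanned 1.42-fold and Axl 1.59-fold, the narrowest of the set.

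Overexpression of Kitl was compared with overexpression of Egfp. Of the 10 members 6 were higher in Kitl_OE and none lower at an adjusted p of 0.05 (edgeR's quasi-likelihood test, Benjamini-Hochberg over 15271 genes; a gene past it is said here to be called). Among all genes tested 34.3% were called, 15.4% as higher and 18.9% as lower. The members that rose were the targets Ctgf, Cyr61 and Ankrd1 and the pathway regulators Amotl2, Ajuba and Lats2. The median log2 fold change of the 10 members was 0.65, against -0.07 over all genes. In each of the 6, every Kitl_OE library was above every Egfp_OE library, a separation in the higher direction that 24.9% of all genes showed. An exact two-sided permutation test of 3 against 3 libraries cannot go below p = 0.1, so the tests rest on the spread that all genes and groups share.

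Ctgf, the gene of connective tissue growth factor, a secreted matrix-associated protein that stellate cells make in fibrosis, had the largest difference. It is ENSMUSG00000019997 on chromosome 10 (GRCm38, 24595442 to 24598683, plus strand). Its CPM values were 46.9, 37.1 and 23.4 in Egfp_OE and 281, 389.6 and 471 in Kitl_OE. In shCtrl they were 118, 212 and 235, and in shKitl 194, 87.1 and 81.4. The Egfp_OE libraries were the lowest of all 12 and the Kitl_OE libraries the highest, while shCtrl and shKitl overlapped. The difference of Kitl_OE from Egfp_OE was 3.41 ± 0.420 on the log2 scale (SE), or 10.6-fold, with an adjusted p of 0.000156. The noncoding gene Gm15270, which overlaps a Ctgf exon on the other strand, had 18 to 53 counts in a library, against at least 696 for Ctgf.

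Cyr61 encodes the other founding CCN protein, a ligand of integrins (ENSMUSG00000028195, chromosome 3, 145646976 to 145649981, minus strand). Its values were 338, 491 and 242 CPM in Egfp_OE and 652, 766 and 661 in Kitl_OE, with 398, 540.3 and 571 in shCtrl and 553, 626 and 315 in shKitl. Kitl_OE lay above the other groups, which overlapped one another. The difference from Egfp_OE was 0.96 ± 0.294 on the log2 scale, or 1.94-fold (adjusted p = 0.0261). Both CCN members thus rose, Ctgf by more: the ratio of Ctgf to Cyr61 in TPM was 0.0980, 0.0533 and 0.0682 in Egfp_OE and 0.304, 0.359 and 0.503 in Kitl_OE. It was 0.210, 0.278 and 0.290 in shCtrl and 0.248, 0.0981 and 0.182 in shKitl, so that the ratio in Kitl_OE was above that in every other library.

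Ankrd1, an ankyrin-repeat protein of muscle and stressed cells that is widely used as a YAP readout (ENSMUSG00000024803, chromosome 19, 36111961 to 36120099, minus strand), was counted at 156, 255 and 95.7 CPM in Egfp_OE. It stood at 303, 322 and 461 CPM in Kitl_OE, 285, 454 and 524 in shCtrl and 322, 258 and 338 in shKitl. Here Egfp_OE was below every library of the other groups, and Kitl_OE overlapped both hairpin groups. The rise over Egfp_OE was 1.10 ± 0.336 on the log2 scale, or 2.14-fold (adjusted p = 0.0258).

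Lats2, the kinase that phosphorylates YAP and TAZ (ENSMUSG00000021959, chromosome 14, 57689662 to 57758388, minus strand), was at 58.2, 32.2 and 46.5 CPM in Egfp_OE and at 99.5, 106 and 117 in Kitl_OE. Its values were 62.1, 85.0 and 92.7 in shCtrl and 89.7, 93.5 and 76.1 in shKitl. All Egfp_OE libraries were lower and all Kitl_OE libraries higher than both hairpin groups. The difference was 1.24 ± 0.221 on the log2 scale, or 2.36-fold (adjusted p = 0.00152). A predicted gene on the same strand, Gm49361, overlaps Lats2 exons in GENCODE M21 and has no row in the count table.

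Amotl2, an angiomotin relative that holds YAP outside the nucleus (ENSMUSG00000032531, chromosome 9, 102716672 to 102733418, plus strand), was at 198, 204 and 173 CPM in Egfp_OE and 281, 301 and 350.1 in Kitl_OE. The shCtrl libraries, at 186, 207 and 208 CPM, were close to Egfp_OE, while shKitl ranged widely at 357, 333 and 189. Amotl2 was 1.62-fold higher in Kitl_OE than in Egfp_OE (log2 0.70 ± 0.215, adjusted p = 0.0267). Ajuba, a LIM protein that binds the LATS kinases and restrains them (ENSMUSG00000022178, chromosome 14, 54567472 to 54577558, minus strand), was at 40.7, 40.0 and 45.8 CPM in Egfp_OE and at 62.8, 57.5 and 73.3 in Kitl_OE. It was as high or higher in the hairpin groups, at 55.9, 89.7 and 92.2 CPM in shCtrl and 74.5, 66.0 and 94.4 in shKitl. Its difference in Kitl_OE was the smallest of the 6 at 1.53-fold (log2 0.61 ± 0.209, adjusted p = 0.0404).

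**Figure D2:**
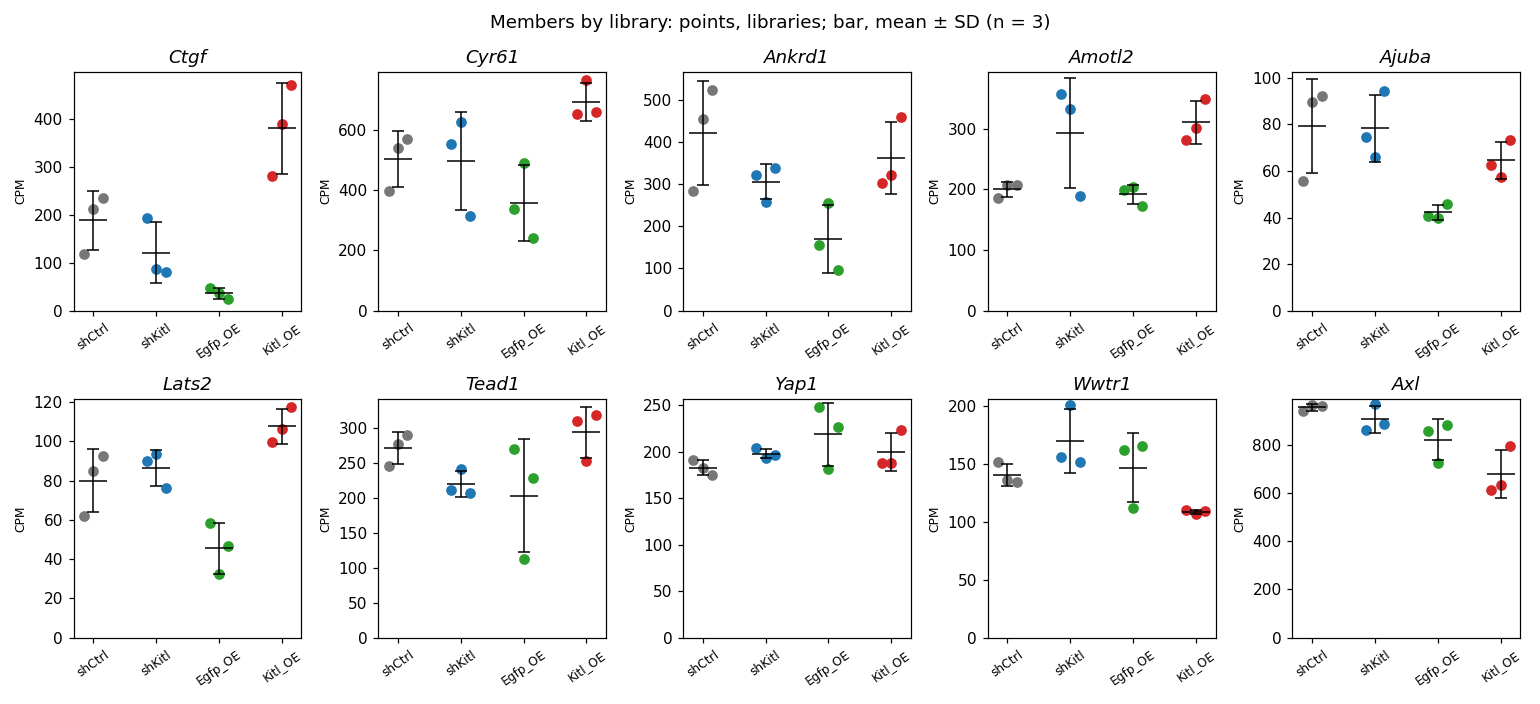
CPM of each member in the 12 libraries, 1 panel per gene on a linear axis from 0, with points for libraries and black bars for the group mean ± SD (n = 3). The 3 Egfp_OE libraries of Ctgf lie between 23.4 and 46.9 CPM and the 3 Kitl_OE libraries between 281 and 471, while the Yap1 libraries stay within a 1.42-fold range.

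The coactivators and their DNA-binding partner were not called. Yap1 (ENSMUSG00000053110, chromosome 9, 7931999 to 8004596, minus strand) was at 248, 182 and 227 CPM in Egfp_OE and 188, 188 and 223 in Kitl_OE, with 191, 183 and 175 in shCtrl and 204, 193 and 197 in shKitl. Kitl_OE lay within the range of Egfp_OE, and the difference was -0.13 ± 0.147 on the log2 scale (adjusted p = 0.521). Wwtr1 (ENSMUSG00000027803, chromosome 3, 57455649 to 57575910, minus strand) was at 162, 112 and 166 CPM in Egfp_OE and 109.97, 106 and 109 in Kitl_OE. Every Kitl_OE library of this gene was below the other 9 libraries (25.6% of all genes lay wholly below Egfp_OE), which in shCtrl stood at 151, 136 and 135 CPM and in shKitl at 156, 201 and 152. The difference from Egfp_OE was -0.43 ± 0.173 (adjusted p = 0.0722), and without Egfp_OE replicate 2 it was -0.58 and called (adjusted p = 0.00351), as it was with DESeq2 (-0.44, adjusted p = 0.0440). The ratio of Yap1 to Wwtr1 in TPM was 0.791, 0.836 and 0.707 in Egfp_OE and 0.882, 0.913 and 1.05 in Kitl_OE. It was 0.650, 0.695 and 0.668 in shCtrl and 0.676, 0.496 and 0.668 in shKitl, so that it was above every hairpin library in both overexpression groups and highest in Kitl_OE.

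Tead1 (ENSMUSG00000055320, chromosome 7, 112679318 to 112906807, plus strand) was at 269.6, 113 and 228 CPM in Egfp_OE and 310.5, 252 and 319 in Kitl_OE, against 246, 277 and 290.2 in shCtrl and 211, 242 and 207 in shKitl. The low value of 113 belongs to Egfp_OE replicate 2. With it the difference of Kitl_OE from Egfp_OE was 0.53 ± 0.259 (adjusted p = 0.134) and without it 0.26 (adjusted p = 0.173), while leaving out Egfp_OE replicate 1 gave 0.79 and a call (adjusted p = 0.0427). Axl, a receptor tyrosine kinase that is a YAP target in several cancers (ENSMUSG00000002602, chromosome 7, 25757273 to 25788705, minus strand), was the member with the most counts. It was at 858, 721 and 881 CPM in Egfp_OE and 611, 634 and 793 in Kitl_OE, with 938, 964 and 958 in shCtrl and 862, 968 and 884 in shKitl. The 2 overexpression groups overlapped, and the difference was -0.27 ± 0.156 (adjusted p = 0.198), so Axl was not called.

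**Figure D3:**
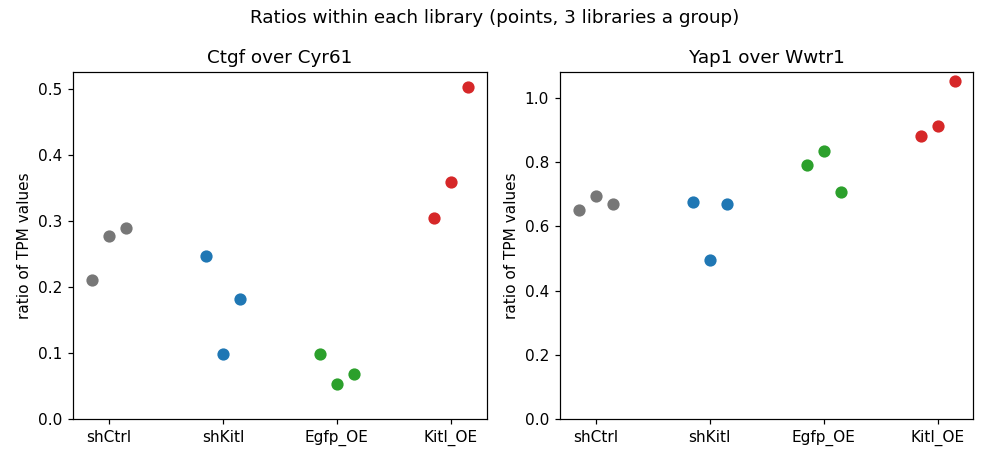
Ratio of Ctgf to Cyr61 and of Yap1 to Wwtr1 in TPM, 1 point per library. The Ctgf ratio is lowest in Egfp_OE (0.0533 to 0.0980) and highest in Kitl_OE (0.304 to 0.503), and the Yap1 ratio reaches 0.882 to 1.05 in Kitl_OE.

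How firmly each call of Kitl_OE against Egfp_OE stood depended on the member. Ctgf and Lats2 were called with each of the 12 libraries left out in turn, at log2 differences of 3.18 to 3.66 and 1.06 to 1.46. Cyr61 lost its call without Egfp_OE replicate 1 (0.92, adjusted p = 0.0656), Egfp_OE replicate 3 (0.75, 0.0833) or Kitl_OE replicate 2 (0.90, 0.0754). Ankrd1 lost it without Egfp_OE replicate 1 (1.05, 0.0673), Egfp_OE replicate 3 (0.82, 0.0696) or Kitl_OE replicate 3 (0.92, 0.0896). Those 2 targets were thus called in 9 of 12 settings. The 12 include settings without an shCtrl or shKitl library, which keep every library of this comparison. All losses of Cyr61 and Ankrd1 came without an Egfp_OE or Kitl_OE library. Amotl2 was called in 8 of 12 and was lost without Egfp_OE replicate 1 (0.72, 0.0505), Egfp_OE replicate 3 (0.63, 0.0779), Kitl_OE replicate 2 (0.73, 0.0570) or Kitl_OE replicate 3 (0.63, 0.0760). Ajuba was the least stable, with a call in 4 of 12 settings, all of them without an shCtrl or shKitl library. Its difference was 0.64 without shCtrl replicate 2 (0.0536), 0.63 without shKitl replicate 1 (0.0513), and 0.59, 0.59 and 0.68 without Egfp_OE replicates 1, 2 and 3 (0.0890, 0.0693 and 0.0558). Without Kitl_OE replicates 1, 2 and 3 it was 0.65, 0.70 and 0.54 (0.0897, 0.0567 and 0.132). Without Egfp_OE replicate 2, the library that stood apart, Ctgf was 3.45 (0.000978), Cyr61 1.27 (0.00514), Ankrd1 1.54 (0.00366), Amotl2 0.76 (0.0231) and Lats2 1.06 (0.0014) higher on the log2 scale and remained called.

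Other cell-type markers moved with this comparison. The summed stellate and fibroblast markers were 5099 to 6643 CPM in Egfp_OE and 21412 to 25465 in Kitl_OE, and the mesothelial sum moved in the same direction. Of the 11 stellate and fibroblast markers 6 were called as higher, led in CPM by Col1a1 (1830.1 to 10547 CPM), and 2 as lower, Pdgfra (195 to 15.2) and Thy1 (41.9 to 7.44). The endothelial sum, carried by Kdr, was 3.79 to 5.55 CPM in Egfp_OE and 22.4 to 26.6 in Kitl_OE, with Pecam1 at no more than 7 counts in a library. Of the 7 blood markers 1 reached 1 CPM and Cd3e was at 0, and the epithelial sum did not exceed 11.98 CPM. The part of these markers in the members' results was not tested. In bulk RNA, fewer cells of a type and less RNA per cell cannot be told apart.

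The 2 control lines, which carry different vectors and P numbers, were compared with each other. Egfp_OE was the lowest group by mean for 7 of the 10 members. Ctgf was lower in Egfp_OE than in shCtrl, at 18.99% of its level (log2 -2.40 ± 0.403, adjusted p = 0.0281), and was the only member called, against 1.25% of all genes, 0.511% called as higher and 0.74% as lower. The call was lost without shCtrl replicate 2 (-2.31, 0.139), shCtrl replicate 3 (-2.22, 0.129), Egfp_OE replicate 3 (-2.17, 0.0958) or Kitl_OE replicate 2 (-2.41, 0.0520). Ankrd1, Ajuba and Lats2 missed the threshold although their groups did not overlap. Relative to shCtrl they stood at 40.2% for Ankrd1 (log2 -1.32 ± 0.338, adjusted p = 0.0696), 53.2% for Ajuba (-0.91 ± 0.210, 0.0562) and 57.1% for Lats2 (-0.81 ± 0.219, 0.0786). DESeq2, with which 10.2% of all genes were called, called all of them, at -1.34 (0.00564), -0.93 (0.00431) and -0.83 (0.0133). Single libraries decided these values as well. Without shCtrl replicate 1 the 3 genes were called, at -1.54 (0.0370), -1.11 (0.0191) and -0.96 (0.0410), where 4.94% of all genes were called. Ankrd1 was also called without Egfp_OE replicate 2 (-1.74, 0.0363), Ajuba without shKitl replicate 3 (-0.92, 0.0498) and Lats2 without Egfp_OE replicate 1 (-1.03, 0.0434). In those settings 2.15%, 1.6% and 2.95% of all genes were called, in that order. Cyr61, Amotl2, Tead1, Yap1, Wwtr1 and Axl differed by -0.50, -0.06, -0.42, 0.26, 0.06 and -0.22 on the log2 scale, at adjusted p-values of 0.292 to 0.88. The members' median was -0.46, against 0.05 over all genes, and 5 of 10 lay wholly below shCtrl and 0 wholly above it, against 13.9% and 14.6% of all genes. The summed mesothelial markers were 76.4 to 103 CPM in shCtrl, above Egfp_OE, and their part in these differences was not tested. The control lines differ in vector and P number, and these cannot be told apart from the Egfp insert.

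Kitl_OE was therefore also set against shCtrl, a comparison chosen after the values were seen and sharing Kitl_OE with the one above. Of the members 1 was called as higher and 1 as lower, against 32.3% of all genes (15.8% higher and 16.5% lower). Amotl2 was 1.55-fold higher (log2 0.64 ± 0.214, adjusted p = 0.0409) and Axl was at 71.2% of shCtrl (-0.49 ± 0.156, 0.0324). Ctgf was 2.02-fold higher with no overlap of the libraries, but was not called (log2 1.01 ± 0.386, adjusted p = 0.0641). Cyr61 (0.46, 0.248) and Lats2 (0.43, 0.151) also lay wholly above shCtrl and Wwtr1 (-0.37, 0.119) wholly below it, without a call. In all, 4 members lay wholly above shCtrl and 2 wholly below, as did 31.5% and 30.1% of all genes. Ankrd1 and Ajuba, which rose against Egfp_OE, were at -0.22 (0.647) and -0.30 (0.298) against shCtrl, so their direction turned with the control. The order of the group means shows the same: Egfp_OE was lowest for Ctgf, Cyr61, Ankrd1, Amotl2, Ajuba, Lats2 and Tead1, but shCtrl was highest for Ankrd1 and Ajuba, and Kitl_OE for Ctgf, Cyr61, Amotl2, Lats2 and Tead1. For Amotl2 and Axl, no 2 neighbours in the order of the group means were separated.

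**Figure D4:**
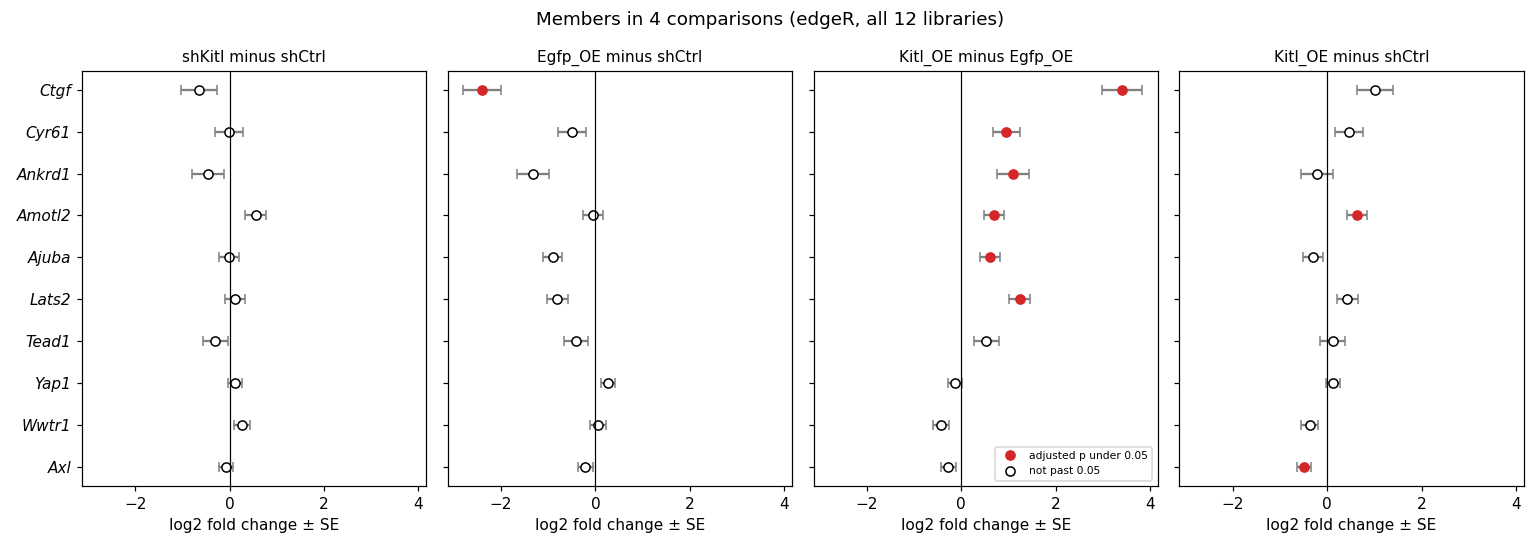
Log2 fold changes of the members ± SE in the knockdown, between the controls, and in Kitl_OE against either control, with red points for adjusted p-values under 0.05 and white points for the others. The 6 members called in Kitl_OE against Egfp_OE run from 0.61 to 3.41, and Ankrd1 and Ajuba lie below 0 when shCtrl is the control.

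Knockdown of Kitl gave no call. Kitl itself was at 36.2% of shCtrl (log2 -1.46 ± 0.258, edgeR's adjusted p = 0.121). With edgeR, 0 of the 10 members and 0.0% of all genes were called. DESeq2 called 452 genes, none of them a member, but these were only 2.96% of all genes. At an unadjusted p under 0.05, 1 member passed, against 15.8% of all genes. That member was Amotl2, at a difference of 0.55 ± 0.214 (edgeR's adjusted p = 0.268). It was called without shKitl replicate 3 (0.78, adjusted p = 0.0415), the library in which Amotl2 stood at 189 CPM. Ctgf differed by -0.64 ± 0.384 (0.419) and Ankrd1 by -0.46 ± 0.333 (0.507), both with overlapping libraries, and Cyr61 by -0.01 ± 0.291 (0.986). Yap1 (0.12, 0.728) and Wwtr1 (0.27, 0.45) lay wholly above shCtrl and Tead1 (-0.30, 0.581) wholly below it, and 19.7% of all genes showed such a separation, 11.0% higher and 8.64% lower. Ajuba, Lats2 and Axl were at -0.02, 0.11 and -0.08. The summed stellate and fibroblast markers were 5555 to 7242 CPM in shCtrl and 7547 to 18492 in shKitl. The summed mesothelial markers, at 76.4 to 103 CPM in shCtrl, were also higher in shKitl, at 109 to 189 CPM. Their part in the members' values was not tested.

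The difference between the 2 effects, overexpression minus knockdown, was tested directly. The 2 designs move Kitl in opposite directions, and Kitl itself differed by 2.52 ± 0.363 (edgeR's adjusted p = 0.0011). A call therefore does not by itself mean that the 2 effects disagree. Both control groups enter the difference, and with them the gap between Egfp_OE and shCtrl given above. Ctgf (4.05 ± 0.561, adjusted p = 0.000875), Ankrd1 (1.56 ± 0.472, 0.0485) and Lats2 (1.13 ± 0.308, 0.0324) were called as higher, against 14% of all genes in either direction, 4.07% as higher and 9.88% as lower. Only the Ctgf difference was called in all 18 other settings tried, and those of Ankrd1 and Lats2 in 6 each. Cyr61 (0.97, 0.143), Tead1 (0.83, 0.156), Ajuba (0.63, 0.18), Amotl2 (0.15, 0.791), Axl (-0.20, 0.595), Yap1 (-0.25, 0.468) and Wwtr1 (-0.70, 0.0788) were not called.

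Around the members, a list of 26 Hippo kinases and scaffolds, 3 of them members, had 9 genes higher and 3 lower in Kitl_OE than in Egfp_OE, with a median log2 difference of 0.39. Over all genes, 15.4% were higher and 18.9% lower and the median was -0.07. Among its 23 genes that are no members, 6 were higher and 3 lower. The genes that rose most were Wwc1, the scaffold KIBRA that promotes LATS activation, from 37.3 ± 11.3 to 169 ± 12.3 CPM (2.18 ± 0.330, adjusted p = 0.000574), and Ptpn14, a phosphatase that binds YAP (1.31 ± 0.351, 0.0143). Wwc2, a relative of Wwc1 (1.16 ± 0.255, 0.00519), and Nf2, the tumour suppressor merlin (1.14 ± 0.292, 0.0114), rose with them. Dchs1, a protocadherin upstream of the cascade, fell from 14.99 ± 5.65 to 0.549 ± 0.131 CPM (-4.76 ± 0.795, 0.00105). With spike-in scaling Ptpn14 (1.15, 0.185), Wwc2 (1.10, 0.146) and Nf2 (1.01, 0.223) were not called. Without Egfp_OE replicate 2 the list had 8 genes higher and 7 lower, where 39.4% of all genes were called. Against shCtrl, where 32.3% were called, it had 2 higher and 3 lower: Wwc1 (0.81, 0.0706) and Ptpn14 (0.79, 0.102) were not called, and Wwc2 stood at -0.10 (0.793).

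A list of TEAD and VGLL factors that also holds Yap1 and Wwtr1 had 9 tested genes. Of these 3 were higher and 1 lower, against 34.3% of all genes called in either direction. The members among them, Tead1, Yap1 and Wwtr1, were not called. All of its calls thus fell among its 6 tested genes that are no members, whose median log2 difference was 0.95. Tead3 rose from 26.4 ± 1.69 to 94.2 ± 3.75 CPM (1.84 ± 0.358, adjusted p = 0.00255). Tead2 fell, from 132, 235 and 168 CPM in Egfp_OE to 66.0, 67.4 and 65.8 in Kitl_OE (-1.43 ± 0.202, 0.00038). Vgll3, a TEAD cofactor, rose from 91.8 ± 28.9 to 239 ± 45.3 CPM (1.38 ± 0.249, 0.00163), and was not called with spike-in scaling (1.34, 0.0576). Vgll2 was called from very few reads, 92 counts over the Kitl_OE libraries and 2 over the Egfp_OE libraries, a ratio of 50.1 with an exact 95% interval of 13.5 to 420.2 for counting error. Vgll1 was too low to be tested.

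The CCN family did not move as one. Beside Ctgf and Cyr61, Wisp1 (Ccn4) rose from 102, 103 and 75.1 CPM in Egfp_OE to 276, 299 and 261 in Kitl_OE (1.58 ± 0.196, adjusted p = 0.000161), with 109, 99.4 and 98.1 in shCtrl. Nov (Ccn3), a CCN protein often described as opposing CTGF in fibrosis, fell from 52.3, 75.0 and 49.1 CPM to 2.02, 4.25 and 4.13 (-4.08 ± 0.641, 0.000729). In shCtrl Nov was at 35.8, 20.4 and 15.9 CPM and in shKitl at 43.3, 165 and 28.7, so that only the Kitl_OE libraries were below 5 CPM. Wisp2 was low and spread widely, from 0.297 to 6.55 CPM in shCtrl and 2.80 to 53.3 in shKitl, and was not called (0.80, adjusted p = 0.571). Wisp3, at 0 to 11 counts, was not tested.

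The receptor Axl belongs to the TAM family, whose ligands are Gas6 and Pros1. Gas6 rose from 34.95 ± 11.7 CPM in Egfp_OE to 412 ± 20.2 in Kitl_OE (3.56 ± 0.853, adjusted p = 0.00812), and stood at 24.8 ± 27.1 in shCtrl and 80.4 ± 58.1 in shKitl. Tyro3 was lower at 42.2 against 57.9 CPM (-0.45 ± 0.139, 0.0254), a call that was lost without shCtrl replicate 2 (-0.43, 0.0522), Egfp_OE replicate 3 (-0.42, 0.0669) or Kitl_OE replicate 1, 2 or 3 (-0.41, -0.46 and -0.43, at 0.105, 0.0729 and 0.0821). The Tyro3 call was also lost with spike-in scaling (-0.39, 0.56), without the filter (-0.42, 0.175), with shared P numbers (-0.51, 0.0757) and against shCtrl (-0.28, 0.14). Mertk (0.93, 0.0652) and the ligand Pros1 (-0.31, 0.3) were not called, although Mertk was without shKitl replicate 2 (0.93, 0.0251) or 3 (0.94, 0.0331) and with DESeq2 (0.92, 0.0294).

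A published signature of 22 YAP and TAZ targets, 6 of them members, had 9 genes higher and 2 lower, with a median of 0.69, against 15.4% higher, 18.9% lower and a median of -0.07 over all genes. Of its 16 other genes 4 were higher and 2 lower, with a median of 0.49. Crim1, a transmembrane protein that binds BMPs, rose from 102 ± 36.3 to 408 ± 58.3 CPM (2.00 ± 0.316, adjusted p = 0.000755), and Ccdc80, a secreted matrix protein, from 71.2 ± 18.9 to 220.3 ± 41.3 (1.63 ± 0.298, 0.00174). Igfbp3, which binds insulin-like growth factors, fell from 66.8 ± 57.5 to 5.59 ± 3.65 CPM (-3.58 ± 0.650, 0.00169). Its Egfp_OE libraries were at 30.3, 133 and 37.1 CPM, and the difference was -2.58 without replicate 2 of that group (0.0028) and -4.23 without Kitl_OE replicate 1 (0.00239). Fjx1 fell from 10.1 ± 5.13 to 3.22 ± 0.483 (-1.64 ± 0.423, 0.0115). Against shCtrl neither Igfbp3 nor Fjx1 was called, at -0.46 (0.595) and -0.22 (0.725), nor was Ccdc80 (0.79, 0.0565), and the signature had 4 genes higher and 2 lower, where 32.3% of all genes were called. Without Egfp_OE replicate 2 it had 11 higher and 3 lower, where 39.4% were called. In the knockdown, edgeR called 0.0% of all genes and DESeq2 2.96%. None of the 61 genes tested from these 5 lists was called by either. With edgeR, 9 of them passed an unadjusted p of 0.05, against 15.8% of all genes.

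**Figure D5:**
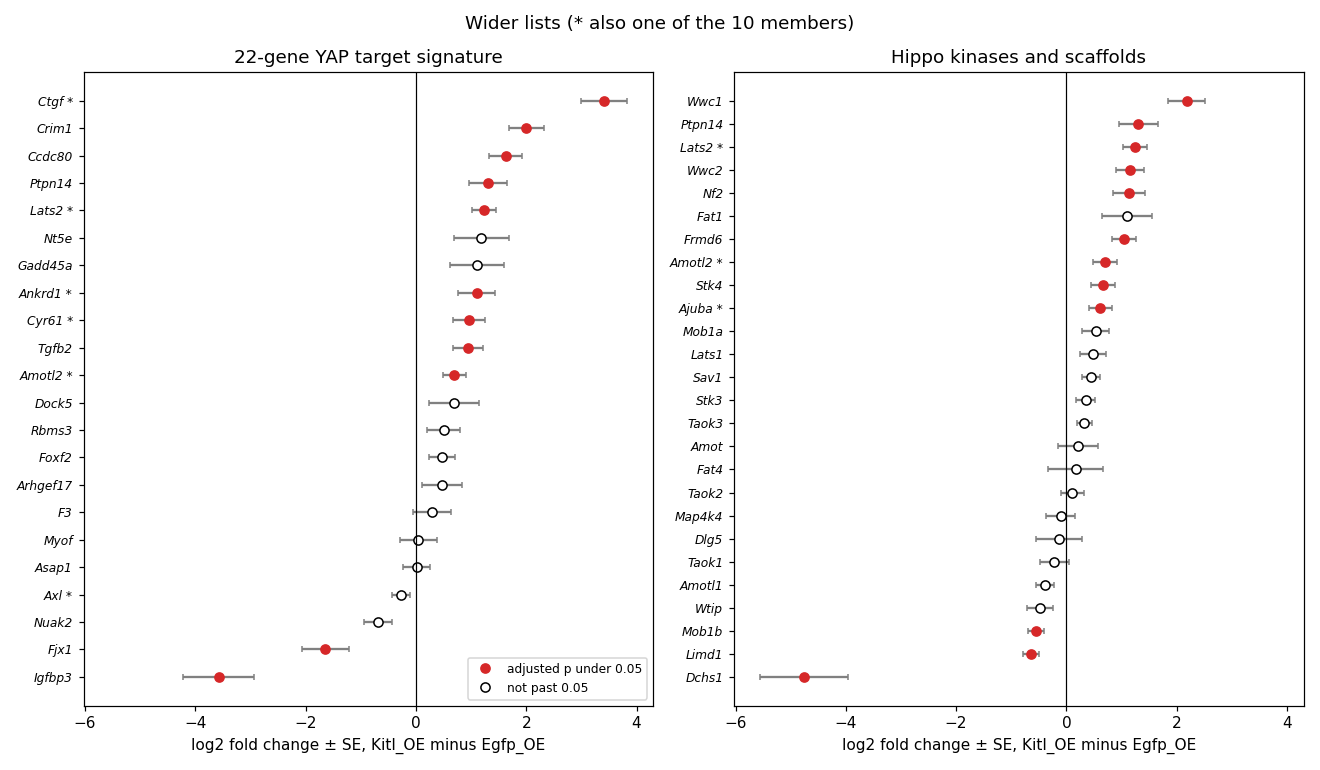
Log2 fold change of Kitl_OE against Egfp_OE ± SE for each gene of the YAP target signature and of the Hippo list, with red points for adjusted p-values under 0.05 and an asterisk on members. Both lists hold genes called in both directions, among them Wwc1 at 2.18 and Dchs1 at -4.76 in the Hippo list.

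The genes most like each of the 3 leading targets were found by the root mean square (RMS) difference of centred log2(CPM + 0.5) over the 12 libraries, among 10503 genes with a mean of at least 5 CPM. It is 0 for an identical profile, and a gene's own profile had an RMS of 1.32 for Ctgf, 0.484 for Cyr61 and 0.651 for Ankrd1. Nearest to Ctgf were Hoxa9 (0.432), Zdhhc2 (0.533), Cfap157 (0.568), Ptprd (0.580) and Suox (0.606). Of the members, Ankrd1 came at rank 103 (0.883), Lats2 at 123 (0.901) and Cyr61 at 250 (0.970), while Wwtr1 came at 7763. Cyr61 was nearest to Saraf (0.223), 4921524J17Rik (0.245), Bag5 (0.248), Gm17501 (0.253) and Gm14005 (0.259), with Amotl2 at rank 54 (0.309). The profile of Ankrd1 lay nearest to Anxa3 (0.282), Phlda1 (0.299), Pdlim1 (0.305), Bnip1 (0.330) and Hspb1 (0.340), with Ajuba at rank 46 (0.428) and Cyr61 at 119. No member was among the 5 nearest genes of any of the 3 targets. The measure counts the size of a change as well as its shape, so a gene of like shape but unlike range ranks low. Ctgf, with the widest range, came at rank 9469 from Cyr61 and 8093 from Ankrd1. The ranks therefore do not tell whether members vary together.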

How the data were processed

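RNA of 12 libraries was counted. The authors deposited raw read counts per gene, made with STAR 2.5.2b and featureCounts of Subread 1.5.2 on GRCm38, per the submitters' processing notes, which also list DESeq2. They also deposited the same libraries as TPM. No source used here gives the annotation release, strand setting or gene lengths, and reads of overlapping genes cannot be separated. The tables hold 49763 rows, of which 92 ERCC spike-ins were left out of library sizes and tests, and 49412 gene IDs matched GENCODE M21, the source of the gene coordinates.

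Groups and replicate numbers came from the sample titles. Counts were fitted with edgeR 4.0.16 in R 4.3.3: filterByExpr (15271 genes kept), TMM scaling, robust quasi-likelihood fit, 1 coefficient per group over all 12 libraries, Benjamini-Hochberg adjustment over all genes tested, threshold 0.05. CPM divide counts by the TMM-corrected library size, and each SE was computed as the log2 difference over the root of F. The fit was also run on simulated counts in which every gene had the same relative spread. Such counts are simpler than these data, and no result here rests on them. Levels of different genes were compared in TPM only. The members, lists, tests and alternatives were chosen with earlier results of these data known. Named were the members, Kitl, the CCN and TAM families, up to 6 called genes of each other list with the largest change, and the 5 genes nearest to Ctgf, Cyr61 and Ankrd1. Alternatives were DESeq2 1.42.0, its size factors, spike-in scaling, no filter, the replicate number as a block, only libraries with P numbers found in both groups, each library left out, and, chosen after seeing the data, shCtrl as the control of Kitl_OE.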

Additional observations from a re-analysis of the deposited data

Results flagged for a closer look

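The effect of Kitl overexpression (Kitl_OE minus Egfp_OE) and that of Kitl knockdown (shKitl minus shCtrl) differed by the test of the difference itself in 3 members. The difference was 4.05 on the log2 scale for Ctgf (edgeR's adjusted p = 0.000875), with every library left out in turn giving a call. For Ankrd1 it was 1.56 (adjusted p = 0.0485). The Ankrd1 call was lost in 10 of the 12 settings that leave out 1 library and held without shCtrl replicate 1 and without Egfp_OE replicate 2; values ran from 1.28 to 2.01. For Lats2 it was 1.13 (adjusted p = 0.0324), with a call in 3 of those 12 settings (without shCtrl replicate 1, Egfp_OE replicate 1 or Egfp_OE replicate 2) and values from 0.97 to 1.35. The 2 designs move Kitl in opposite directions, and Kitl itself differed by 2.52 (adjusted p = 0.0011). Such a call therefore does not by itself mean that the effects disagree. The gap between the controls (Egfp_OE minus shCtrl) also enters, at -2.40 for Ctgf, -1.32 for Ankrd1 and -0.81 for Lats2.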

How the results depend on the processing

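The settings beside those with 1 library left out changed a method, kept only shared P numbers, or took shCtrl as the control of Kitl_OE. Over these settings, the called log2 differences of the members kept direction and call in 46 cases and turned in 2. In 17 cases they kept direction and lost the call. Both turns, those of Ankrd1 and Ajuba, came with shCtrl as the control. With 1 library left out, 79 kept the call, 41 lost it and none turned. In Kitl_OE against Egfp_OE, 6 members and 34.3% of all genes were called. These 6 members became 3 with spike-in scaling (15.4% of all genes) and 2 with the libraries of shared P numbers (22.2%). Against shCtrl, where 32.3% of all genes were called, 2 members were, Amotl2 as higher, the only one of those 6, and Axl as lower. In Egfp_OE against shCtrl, 1 member and 1.25% of all genes were called. The count of members became 0 with spike-in scaling (0.0655% of all genes), 3 without the filter (1.17%) and 4 with DESeq2 (10.2%). With 1 library left out, the counts of called members ranged from 0 to 1 in the knockdown and 2 to 6 in the overexpression. They ranged from 0 to 4 between the controls and 1 to 5 for the difference of the effects. The share of all genes called ran from 0.0% to 1.76%, 22.3% to 39.4%, 0.0% to 4.94% and 7.93% to 18.2%, in that order. The low of 2 came without Egfp_OE replicate 3, where 30.3% of all genes were called.

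Signs turned for Ajuba in the knockdown with shared P numbers (0.11), for Ankrd1 (-0.22), Ajuba (-0.30), Yap1 (0.13) and Wwc2 (-0.10) when Kitl_OE was set against shCtrl, and for Yap1 (-0.067) and Wwtr1 (-0.25) between the controls with spike-in scaling. Leaving out libraries moved uncalled values across 0: in the knockdown Cyr61 ran from -0.21 to 0.22, Ajuba from -0.22 to 0.092 and Lats2 from -0.042 to 0.20; between the controls Amotl2 ran from -0.11 to 0.0046 and Wwtr1 from -0.039 to 0.22; and the difference of the effects ran from -0.068 to 0.34 for Amotl2. Spike-in scaling moved the median of all genes by -0.40 between the controls and by 0.07 in the overexpression, where 2351 genes in place of 5236 were called, and it ended the calls of Amotl2 (0.79, adjusted p = 0.165), Ajuba (0.65, 0.358) and Lats2 (1.20, 0.0839), leaving 1 gene higher and 1 lower among the 26 Hippo genes. Without the filter on low counts Ajuba missed the threshold (0.65, 0.0513), and 23 genes were called in the knockdown. The cause of these shifts was not tested.

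Libraries with the same replicate number deviated together in part only (correlations of 0.14, -0.38 and 0.58 in the knockdown and 0.04, 0.28 and 0.23 in the overexpression), so the replicate numbers were not taken as pairs. Libraries with the same P number had correlations of 0.60 (P14) and 0.45 (P15) in the knockdown. In the overexpression these were -0.0014 (P18) and -0.25 (P19). A fit paired by P number was not run. With the replicate block, the members called stayed at 0 in the knockdown, 6 in the overexpression and 1 between the controls. They went from 3 to 1 for the difference of the effects, as with shared P numbers, where 1 was left. The block called 0.0%, 34%, 0.537% and 13.9% of all genes, in that order. For the difference of the effects, 4.17% were called with shared P numbers. All genes called between the controls went from 191 to 82 under the block.

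Adjusted p-values of the 6 called members were ranged over 19 settings, among them shCtrl as the control of Kitl_OE. They ran from 9.37e-16 to 0.0641 for Ctgf, 3.6e-06 to 0.151 for Lats2 and 0.00514 to 0.248 for Cyr61. For Ankrd1 they ran from 0.00366 to 0.647, for Amotl2 from 0.00365 to 0.165 and for Ajuba from 0.0171 to 0.358. The highest values of Ctgf, Lats2, Cyr61 and Ankrd1 came with shCtrl as the control, and those of Amotl2 and Ajuba with spike-in scaling. Ctgf was called in the other 18 settings. Every member had 696 or more counts in every library; Vgll1, Vgll2, Wisp2 and Wisp3 had few.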
